A study of Mus musculus with 6 samples.

Results

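The genes described are 9 that encode natural killer (NK) cell receptors and their adaptors, in restimulated mouse CD4+ T cells: Klrb1b, Klrb1c, Klrg1, Klrd1, Klrk1, Klrc1, Ncr1, Tyrobp and Fcer1g. These 9 of the 19937 genes tested were chosen by name, as killer lectin receptors, Ncr1 and the signalling adaptors that serve them, with the differences between these arrays already known. Their differences with anti-ICOS are therefore given as a description, and no test of them is used as support. All 9 were on the array, each read by 1 probe set that carried that symbol alone, and no filter on expression was used.

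The tested condition is joint engagement of CD3, the signalling part of the T cell receptor, and ICOS, a costimulatory receptor of the CD28 family, and it was set against engagement of CD3 alone. Both conditions used naive CD4+ T cells from the spleen of B6 mice, first stimulated for 2 days with antibodies to CD3 and CD28 and then left overnight without them. The cells then took up the antibodies for 20 min, and a goat antibody to hamster immunoglobulin cross-linked these for 8 h. There were 2 cultures with anti-CD3 plus anti-ICOS and 4 with anti-CD3, each read on 1 Affymetrix mouse gene array and called biological replicates in the titles. The labels do not say whether the cultures came from different mice, so the spread between arrays may be partly technical. In these bulk samples, fewer cells of a type and less RNA per cell cannot be told apart.

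Killer lectin receptors are C-type lectin-like proteins that NK cells use to weigh activating against inhibitory contacts, and most of their genes lie side by side in the NK gene complex. Inhibitory members carry a tyrosine motif (ITIM) that recruits phosphatases. Activating members have short tails and signal through adaptors such as DAP12, the product of Tyrobp, and the Fc receptor gamma chain, the product of Fcer1g, whose tyrosine motifs (ITAMs) bind the kinases Syk and Zap70. Several of these receptors also appear on activated or memory T cells, and both adaptors are abundant in myeloid cells.

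Anti-CD3 replicate 4 stood apart from the other anti-CD3 arrays across the whole table. Of all 19937 genes, 78.1% had replicate 4 nearer to the mean of the anti-ICOS arrays than to the mean of anti-CD3 replicates 1 to 3, so the main differences below are also given without it or against it alone. The T cell marker Cd4 read 11.95 and 12.00 on the log2 scale with anti-ICOS and 12.05 to 12.45 with anti-CD3. Cd3e read 12.40 and 12.43 with anti-ICOS and 12.45 to 12.81 with anti-CD3. Marker lists of other cells also differed between arrays, though not all in the same way. The summed intensity of 10 measured NK cell markers was 1531 to 1567 with anti-ICOS, 1593 in anti-CD3 replicate 4 and 1029 to 1126 in anti-CD3 replicates 1 to 3. This sum includes Ncr1 and Klrb1c, and most of it comes from Eomes, Prf1 and Itga2. Those last genes, with Klra8, Klre1 and Klri2, read above replicates 1 to 3 in replicate 4, whereas Ncr1, Klrb1c, Gzma and S1pr5 did not. The summed intensity of 10 macrophage and monocyte markers was 1510 to 2205 with anti-ICOS, 1412 in replicate 4 and 929 to 948 in replicates 1 to 3. For 7 B cell markers it was 19848 to 21892 with anti-ICOS, 21781 in replicate 4 and 17785 to 19816 in replicates 1 to 3. For 2 CD8 T cell markers it was 4352 to 4509 with anti-ICOS, 4704 in replicate 4 and 3859 to 4128 in replicates 1 to 3. For 4 markers of innate-like T cells it was 612 to 650 with anti-ICOS, 505 in replicate 4 and 416 to 465 in replicates 1 to 3. For 11 mast cell and basophil markers it was 780 to 967 with anti-ICOS, 558 in replicate 4 and 594 to 659 in replicates 1 to 3. For 10 neutrophil markers it was 706 to 1522 with anti-ICOS, 527 in replicate 4 and 575 to 673 in replicates 1 to 3. On the log2 scale the 2 anti-ICOS arrays differed widely in Mpo (7.27 and 9.12), Elane (7.17 and 8.60) and Ngp (6.19 and 7.82). Both anti-ICOS values were above every anti-CD3 value in 5 of these 10 and below in 1, Camp. The shares of all genes were 8.51% and 14.8%. For 12 dendritic cell markers the summed intensity was 25022 to 27338 with anti-ICOS, 23060 in replicate 4 and 25376 to 28029 in replicates 1 to 3. The bright genes H2-Ab1, H2-Aa, Cd74 and Ccr7 make up most of this sum. In 5 of the 12 both anti-ICOS values were above every anti-CD3 value, and in 1 both were below. Of all genes 8.51% and 14.8% met these rules. Of the dendritic cell markers 1 rose, beside 0.271% of all genes. It was the cytokine receptor gene Flt3, by 1.26 ± 0.087 (SE, limma adjusted p = 0.00321). The sum of 9 CD4 T cell markers was lowest with anti-ICOS, at 26118 to 26824, against 27798 in replicate 4 and 28788 to 30697 in replicates 1 to 3. These 9 did not all fall. Both anti-ICOS values were below every anti-CD3 value in 5 and above in 1, Icos, which differed by 0.38. The shares of all genes were 14.8% and 8.51%. Cd40lg differed by 0.27, Cd3d by -0.033 and Cd3g by -0.010, with overlapping groups. No marker of these lists was at 0 on any array, but array intensities include background, so a value above 0 alone does not show expression. The B cell genes Ms4a1, Cd79a and Cd79b and the CD8 gene Cd8b1 were bright, at 11.36 or more on every array. The part of other cell types in the results was not tested.

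All 9 genes read higher on average with anti-ICOS than with anti-CD3, by 0.12 to 1.68 on the log2(intensity + 16) scale, with a median of 0.75. Over all genes the median difference was -0.031. The lower anti-ICOS value exceeded every anti-CD3 value in 6 of the 9 genes (Klrb1b, Klrb1c, Klrg1, Ncr1, Tyrobp and Fcer1g), as it did in 8.51% of all genes. Both anti-ICOS values were under every anti-CD3 value in 0 of the 9, and in 14.8% of all genes. In the limma fit over all genes with Benjamini-Hochberg adjustment at a threshold of 0.05, 1 of the 9 (Klrb1b) passed, beside 0.271% of all genes. Without anti-CD3 replicate 4, 8 of the 9 passed, all but Klrd1, beside 17.1% of all genes in the higher direction. Since the genes were chosen with this comparison known, nothing is read from these counts.

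**Figure D1:**
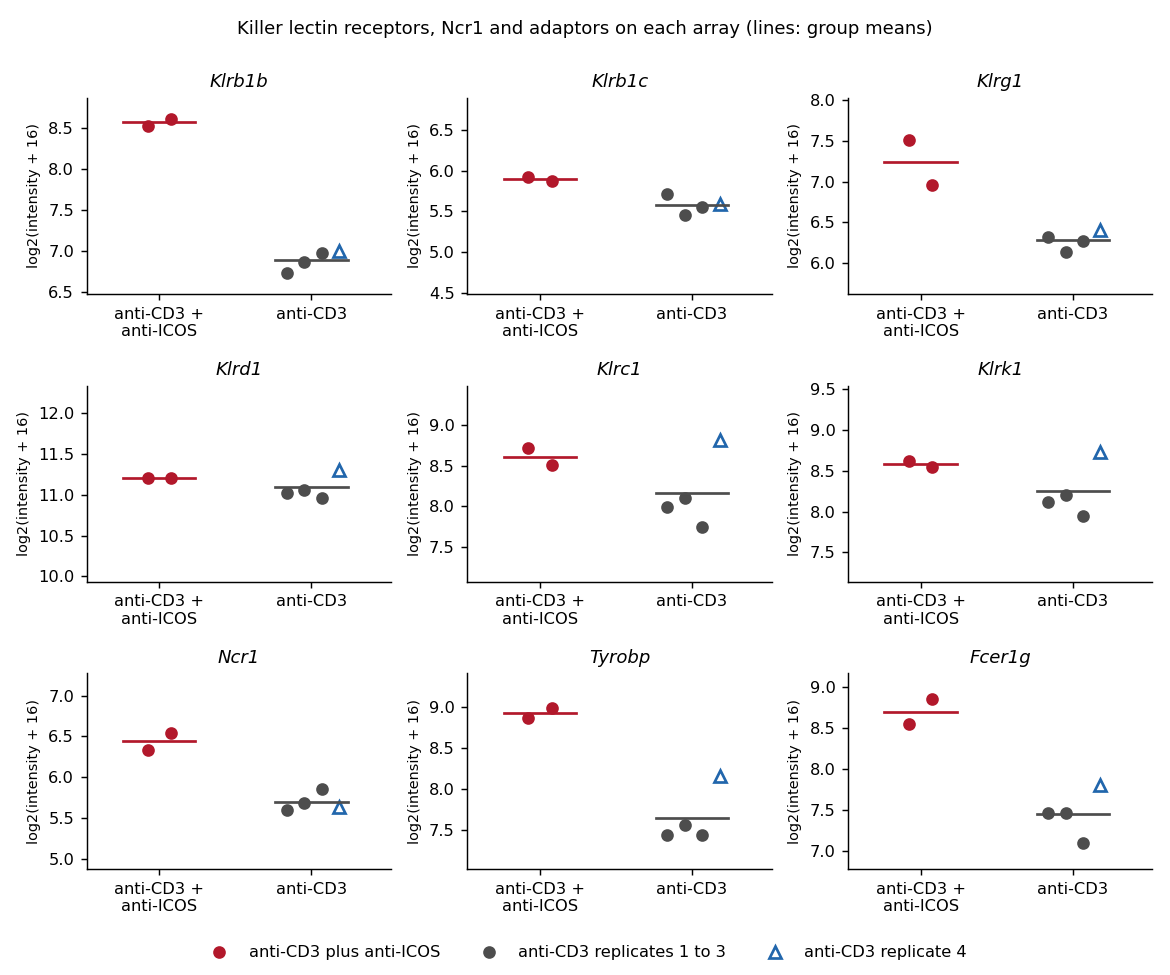
Level of each gene on the log2(intensity + 16) scale on each of the 6 arrays, with lines for group means and an equal axis span in every panel. Replicate 4 of anti-CD3 (open triangle) lies among the other anti-CD3 arrays for Klrb1c and Ncr1, and at 11.31, 8.81 and 8.73 it is the highest of all 6 arrays for Klrd1, Klrc1 and Klrk1.

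Klrb1b differed most. The NKR-P1 receptors bind Clr proteins, which Clec2 genes encode, and Klrb1b encodes an inhibitory one whose ligand is the product of Clec2d. Klrb1b read 8.53 and 8.62 with anti-CD3 plus anti-ICOS, against 6.73, 6.87, 6.97 and 7.0 with anti-CD3. The groups were far apart and replicate 4 lay with the other anti-CD3 arrays. The means were 8.57 ± 0.058 (SD, n = 2) with anti-ICOS and 6.89 ± 0.12 (SD, n = 4) with anti-CD3, a difference of 1.68 ± 0.095 (SE). Against replicate 4 alone the difference was 1.58, and with each array left out in turn it stayed between 1.63 and 1.72. As unlogged intensities, the mean with anti-ICOS was 3.54 times that with anti-CD3.

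Klrb1c encodes NK1.1, the activating NKR-P1 receptor by which NK cells of B6 mice are usually sorted, and it signals through the Fc receptor gamma chain. It read 5.92 and 5.87 with anti-ICOS, against 5.71, 5.46, 5.55 and 5.59 with anti-CD3. The groups did not overlap, but the gap between the lower anti-ICOS array and the higher anti-CD3 array was smaller than the spread among the anti-CD3 arrays. The difference was 0.32 ± 0.087 (SE), and 0.30 against replicate 4 alone. Klrb1c, Klrg1 and Ncr1 were among the dimmest 40% of genes, where the added offset makes differences smaller.

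These paralogs are neighbours on chromosome 6, and close paralogs can share probe signal. Their promoter stretches are shown because the neighbours differed so unequally. Both are the 250 bases before the start site from RefSeq (GRCm38.p6), for Klrb1b chr6:128826316-128826565 and for Klrb1c chr6:128788642-128788891, each on the minus strand. Capitals mark matches to AGGAAG, a core of ETS factor sites, or TGTGGT, a core of RUNX factor sites, on either strand.
Klrb1b: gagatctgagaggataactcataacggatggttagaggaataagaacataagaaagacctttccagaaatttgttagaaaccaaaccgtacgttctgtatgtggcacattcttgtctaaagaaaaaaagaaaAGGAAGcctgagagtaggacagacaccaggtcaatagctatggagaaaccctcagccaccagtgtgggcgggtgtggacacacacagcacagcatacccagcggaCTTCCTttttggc
Klrb1c: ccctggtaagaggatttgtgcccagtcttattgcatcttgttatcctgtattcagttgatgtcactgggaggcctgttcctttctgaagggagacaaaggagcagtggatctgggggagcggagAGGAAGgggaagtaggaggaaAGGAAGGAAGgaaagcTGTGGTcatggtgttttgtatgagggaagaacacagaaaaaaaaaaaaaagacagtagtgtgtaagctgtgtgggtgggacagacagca
Klrb1b held 2 ETS cores and 0 RUNX cores, whereas Klrb1c held 3 ETS cores, 2 of which overlap each other, and 1 RUNX core. Among 32851 such windows of mouse promoters, 29.5% held the ETS core and 14% the RUNX core. Matches to AGGTGTNA (T-box factors, 2.68% of windows), TGANTCA (AP-1, 6.75%) and TTANGTAA (Nfil3, 2.06%) were also searched, and neither window held one. A match describes the letters only.

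The CD94 and NKG2 receptors behaved otherwise. Klrd1 encodes CD94, the partner chain of the NKG2 receptors, and Klrc1 encodes NKG2A, which with CD94 forms an inhibitory receptor for Qa-1. Klrk1 encodes NKG2D, an activating receptor for stress-induced ligands that pairs with the adaptors DAP10 and, in mice, DAP12. Klrc1 read 8.71 and 8.50 with anti-ICOS, against 7.99, 8.10, 7.75 and 8.81 with anti-CD3. The last of these values is replicate 4, which lay above both anti-ICOS arrays, while replicates 1 to 3 lay below both. The difference was 0.45 ± 0.27 (SE) over all arrays, 0.66 ± 0.11 (SE) without replicate 4 and -0.20 against replicate 4 alone.

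Klrk1 read 8.61 and 8.55 with anti-ICOS, against 8.12, 8.21, 7.95 and 8.73 with anti-CD3. Again replicate 4 was the highest array of all. The difference was 0.33 ± 0.20 (SE), or 0.49 ± 0.087 (SE) without replicate 4 and -0.15 against it alone. Klrd1 read 11.21 and 11.20 with anti-ICOS, against 11.02, 11.06, 10.97 and 11.31 with anti-CD3. The anti-ICOS arrays were almost equal to each other and lay between replicate 4 and the rest. Its difference of 0.12 ± 0.10 (SE) was the smallest of the 9. It was 0.19 ± 0.064 (SE) without replicate 4, 0.076 without anti-CD3 replicate 3 and -0.099 against replicate 4 alone. For these 3 genes the sign of the difference thus depended on which anti-CD3 array was the reference. Within the 9 genes they were the ones with replicate 4 nearer to the anti-ICOS mean, as it was in 78.1% of all genes.

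**Figure D2:**
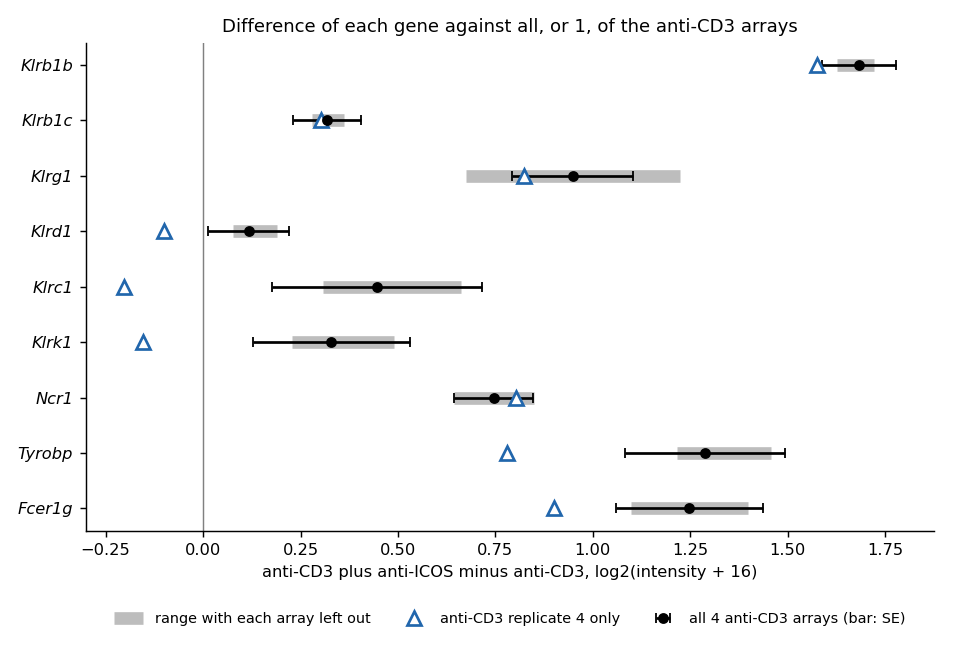
Difference of each gene, the mean with anti-ICOS minus the mean with anti-CD3 alone, with the SE of the fit (bars), the range with each array left out in turn (grey) and the difference from anti-CD3 replicate 4 alone (open triangles), all on the log2(intensity + 16) scale. Triangles fall below 0 for Klrd1, Klrc1 and Klrk1 (-0.099, -0.20 and -0.15) and at 0.30 to 1.58 for the other 6 genes.

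Klrc1 and Klrk1 had the most similar profiles of any pair of the 9, with a root mean square difference of 0.11 over the 6 arrays after each gene was centred on its own mean. Their promoter stretches are shown for that reason, in the same form as above, for Klrc1 chr6:129678974-129679223 and for Klrk1 chr6:129623865-129624114, each on the minus strand of GRCm38.p6 (RefSeq).
Klrc1: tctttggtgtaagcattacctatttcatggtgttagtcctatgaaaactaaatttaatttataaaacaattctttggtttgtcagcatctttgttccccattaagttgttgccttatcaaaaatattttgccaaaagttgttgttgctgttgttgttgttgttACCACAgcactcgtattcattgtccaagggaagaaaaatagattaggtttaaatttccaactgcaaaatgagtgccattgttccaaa
Klrk1: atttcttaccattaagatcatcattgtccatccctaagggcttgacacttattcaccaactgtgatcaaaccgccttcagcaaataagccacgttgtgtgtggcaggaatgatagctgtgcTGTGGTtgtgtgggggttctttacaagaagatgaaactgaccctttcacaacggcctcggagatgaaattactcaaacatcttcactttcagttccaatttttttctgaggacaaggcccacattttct
Each held 1 RUNX core and 0 ETS cores, and neither held one of the other 3 motifs. Of the 6 genes with a sequence, Ncr1 held 2 RUNX cores and 0 ETS cores, and Fcer1g 1 ETS core and 0 RUNX cores.

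Klrg1 encodes an inhibitory receptor for cadherins that marks terminally differentiated effector T cells and mature NK cells. It read 7.51 and 6.96 with anti-ICOS, against 6.32, 6.14, 6.27 and 6.41 with anti-CD3. Both anti-ICOS arrays were higher than every anti-CD3 array, replicate 4 included, but they were 0.55 apart from each other. The difference was 0.95 ± 0.16 (SE). It was 0.67 without anti-ICOS replicate 1 and 1.22 without anti-ICOS replicate 2, the widest range of the 9 genes. Against replicate 4 alone it was 0.82.

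Ncr1 encodes NKp46, an immunoglobulin-like activating receptor of NK cells and some innate lymphoid cells that signals through the Fc receptor gamma and CD3 zeta chains. It read 6.34 and 6.54 with anti-ICOS, against 5.60, 5.68, 5.86 and 5.64 with anti-CD3. The groups were apart, and replicate 4 was the second lowest of the anti-CD3 arrays. The means were 6.44 ± 0.15 (SD, n = 2) with anti-ICOS and 5.69 ± 0.11 (SD, n = 4) with anti-CD3, a difference of 0.75 ± 0.10 (SE) that was 0.80 against replicate 4 alone. As unlogged intensities, the mean with anti-ICOS was 1.98 times that with anti-CD3, at 64.7 and 77.2 with anti-ICOS against 32.5, 35.2, 41.9 and 33.7 with anti-CD3.

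The adaptors Tyrobp and Fcer1g read higher with anti-ICOS, and replicate 4 lay part of the way up. Tyrobp read 8.87 and 8.99 with anti-ICOS, against 7.43, 7.56, 7.43 and 8.15 with anti-CD3. Replicate 4 lay between the other anti-CD3 arrays and the anti-ICOS arrays, 0.68 above the mean of replicates 1 to 3. The difference was 1.29 ± 0.21 (SE), or 1.46 ± 0.074 (SE) without replicate 4 and 0.78 against it alone. Fcer1g read 8.55 and 8.85 with anti-ICOS, against 7.47, 7.46, 7.09 and 7.80 with anti-CD3. Its replicate 4 was also the highest anti-CD3 array, and replicate 3 the lowest. The difference was 1.25 ± 0.19 (SE), with 1.36 ± 0.14 (SE) without replicate 4 and 0.90 against it alone. The profiles of the 2 adaptors were 0.14 apart, the second most similar pair.

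Among the 10 measured macrophage and monocyte markers, 4 had both anti-ICOS values above every anti-CD3 value (Csf1r, Cd68, Mertk and Ccr2), and 0 had both below. Over all genes these shares were 8.51% and 14.8%. In replicate 4 those 4 macrophage markers went different ways. The chemokine receptor gene Ccr2 lay 0.83 above the mean of replicates 1 to 3 there, while Csf1r, Cd68 and Mertk differed from that mean by -0.15, -0.060 and -0.10. The macrophage gene Adgre1 read 7.77 and 8.29 with anti-ICOS, against 6.21, 6.18, 6.27 and 8.10 with anti-CD3, and the lysozyme gene Lyz2 read 8.47 and 9.67 with anti-ICOS, against 6.71, 6.70, 6.77 and 8.53 with anti-CD3. In both, replicate 4 lay between the anti-ICOS values. The macrophage genes Fcgr1 and C1qa had overlapping groups. Fcgr1 read 6.43 and 6.34 with anti-ICOS, against 6.51, 6.41, 6.64 and 6.41 with anti-CD3. C1qa read 6.30 and 6.45 with anti-ICOS, against 6.54, 6.38, 6.51 and 6.32 with anti-CD3. C1qb differed by 0.25 and Cd14 by 0.25, both with overlapping groups. Fcer1a and Ms4a2 encode the other chains of the IgE receptor that holds the gamma chain on mast cells. Fcer1a read 5.31 and 5.24 with anti-ICOS and 5.22 to 5.33 with anti-CD3, and Ms4a2 read 5.19 and 5.27 with anti-ICOS and 5.13 to 5.14 with anti-CD3. Of the 11 mast cell and basophil markers, 5 had both anti-ICOS values above every anti-CD3 value and 0 had both below. Again 8.51% and 14.8% of all genes did so. Kit, the stem cell factor receptor gene, differed by 0.90 ± 0.13 (SE, limma adjusted p = 0.0574), the protease gene Cpa3 by 1.00 ± 0.18 (SE, limma adjusted p = 0.136) and Mcpt8, a basophil protease gene, by 0.84 ± 0.20 (SE, limma adjusted p = 0.296). Against replicate 4 alone these were 0.71, 0.83 and 0.99. Gata2 and Ms4a2 were the other members of the 5, with differences of 0.36 and 0.092. The share of myeloid and mast cells in the adaptor signal was not tested.

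NK cell markers outside the 9 genes moved unequally. Eomes, a transcription factor gene of NK cells and cytotoxic T cells, read 9.17 and 9.11 with anti-ICOS, against 8.50, 8.43, 8.12 and 9.16 with anti-CD3. Itga2, which encodes the integrin CD49b, read 7.85 and 7.92 with anti-ICOS, against 7.44, 7.55, 7.43 and 8.28 with anti-CD3. Both were thus as high or higher in replicate 4, as Klrc1 and Klrk1 were. The granzyme gene Gzma read 6.57 and 6.32 with anti-ICOS, against 6.10, 6.13, 6.0 and 5.82 with anti-CD3, and replicate 4 was its lowest array. S1pr5, a receptor gene of mature NK cells, read 7.04 and 7.14 with anti-ICOS, against 7.18, 7.24, 7.32 and 7.16 with anti-CD3. Of the 10 measured NK markers, 0 passed the limma fit in either direction over all 6 arrays, and 4 were higher and 0 lower at an unadjusted p under 0.05, beside 6.24% and 5.57% of all genes. Without replicate 4, 8 of them were past the threshold, all higher, beside 17.1% of all genes. Ncr1 and Klrb1c are 2 of these 10.

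The rest of the killer lectin family was read by 16 of 33 listed genes. In the fit over all genes 0 of them passed in either direction, 3 were higher and 1 lower at an unadjusted p under 0.05 (6.24% and 5.57% of all genes), and the median difference was 0.11, or 0.26 with the filter on dim genes. Without replicate 4, 5 were higher and 1 lower, where 17.1% and 12.7% of all genes passed in these directions. Klri1, which encodes a receptor that pairs with the product of Klre1, read 7.64 and 6.48 with anti-ICOS, against 5.74, 5.77, 5.84 and 6.15 with anti-CD3, a difference of 1.18 ± 0.29 (SE, limma adjusted p = 0.337). Its relative Klri2 differed by 0.46 ± 0.13 (SE, limma adjusted p = 0.411), and Klrb1 by -0.25 ± 0.081 (SE, limma adjusted p = 0.413). Without replicate 4 these differences were 1.27 for Klri1, 0.53 for Klri2 and -0.29 for Klrb1. Klri1 differed by 0.60 without anti-ICOS replicate 1 and by 1.76 without anti-ICOS replicate 2, where it passed (limma adjusted p = 0.0456), and Klri2 by 0.29 and 0.63 in the same fits. For Klri1 the 2 anti-ICOS arrays were further apart from each other than the lower one was from replicate 4.

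Read in their order on chromosome 6, 39 measured genes span the stretch from the first Klrb1 gene to the last Klra gene, 21 of them killer lectin genes. This stretch was chosen after the values were seen. In 15 of the 21, anti-CD3 replicate 4 lay above replicates 1 to 3, as it did in 7 of the 9 members and in 34.5% of all genes. From Klre1 to Klrc1, 6 neighbouring genes (Klre1, Klrd1, Klrk1, Klrc3, Klrc2 and Klrc1) lay 0.29 to 0.86 above replicates 1 to 3 in replicate 4 and 0.19 to 0.66 above them with anti-ICOS. In all but Klre1 replicate 4 exceeded the anti-ICOS mean. Klrb1b differed in both respects, at 0.14 in replicate 4 and 1.72 with anti-ICOS, while Klrb1f nearby was at 0.86 in both. Klrc1, Klrc2 and Klrc3 are near-identical in parts and may share probe signal, so they are not independent readings.

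**Figure D3:**
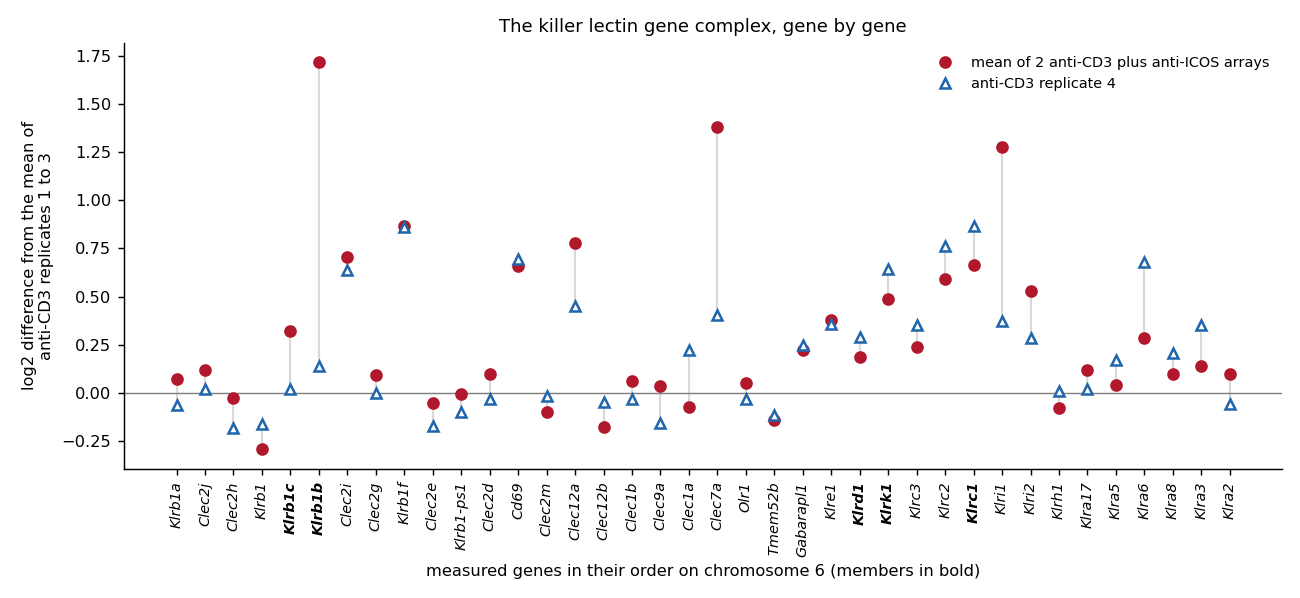
Difference of the anti-ICOS mean (filled circles) and of anti-CD3 replicate 4 (open triangles) from the mean of anti-CD3 replicates 1 to 3, on the log2(intensity + 16) scale, for 38 measured genes in their order on chromosome 6, without a microRNA gene of the stretch. Klrb1b stands at 1.72 against 0.14, whereas triangles lie above circles from Klrd1 to Klrc1.

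Ligands of these receptors were read by 10 of 20 listed genes, of which 0 passed the fit in either direction over all arrays and 1 was higher at an unadjusted p under 0.05, with a median difference of 0.054, or 0.11 with quantile normalization or the filter on dim genes. At that p 6.24% of all genes were higher. Without replicate 4, 2 were higher and 1 lower, beside 17.1% and 12.7% of all genes. Clec2i, which encodes a Clr ligand of NKR-P1 receptors, read 10.80 and 10.83 with anti-ICOS, against 10.13, 10.18, 10.02 and 10.75 with anti-CD3. The difference was 0.55 ± 0.19 (SE, limma adjusted p = 0.416), and replicate 4 lay just under the anti-ICOS arrays. Clec2d, the ligand gene of Klrb1b, read 11.02 and 11.09 with anti-ICOS, against 11.04, 11.05, 10.78 and 10.92 with anti-CD3, so the groups overlapped. H60b, a ligand gene of NKG2D, differed by 0.40 ± 0.20 (SE, limma adjusted p = 0.423), and Cdh1, which encodes the Klrg1 ligand E-cadherin, by 0.18 ± 0.092 (SE, limma adjusted p = 0.423). Without replicate 4, Clec2i differed by 0.70, H60b by 0.56 and Cdh1 by 0.13, and Cdh1 by 0.12 without anti-ICOS replicate 1. Against replicate 4 alone they differed by 0.069, -0.067 and 0.33.

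The other adaptors with an ITAM or a related motif did not follow Tyrobp and Fcer1g in level. Over all 7, 0 passed in either direction, 1 was lower at an unadjusted p under 0.05 (5.57% of all genes), and the median difference was -0.033. Without replicate 4, 1 was higher and 2 were lower, beside 17.1% and 12.7% of all genes. Cd3e read 12.40 and 12.43 with anti-ICOS, against 12.75, 12.81, 12.72 and 12.45 with anti-CD3 (difference -0.27 ± 0.11 SE, limma adjusted p = 0.419). Cd247, which encodes CD3 zeta, differed by -0.19 ± 0.080 (SE, limma adjusted p = 0.420). Hcst, which encodes the NKG2D adaptor DAP10, read 8.23 and 8.08 with anti-ICOS, against 7.79, 7.97, 7.73 and 8.24 with anti-CD3 (difference 0.22 ± 0.15 SE, limma adjusted p = 0.462). Without replicate 4 the differences were -0.35 for Cd3e, -0.23 for Cd247 and 0.32 for Hcst, and Hcst differed by 0.15 without anti-ICOS replicate 1. As with Klrk1, the highest Hcst array was replicate 4.

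Downstream kinases and linkers were read by 23 of 28 listed genes, with 0 past the threshold in either direction, 3 higher at an unadjusted p under 0.05 (6.24% of all genes) and a median of 0.16. Without replicate 4, 12 were higher and 1 lower, beside 17.1% and 12.7% of all genes. Syk, the kinase that binds phosphorylated ITAMs, read 9.73 and 9.95 with anti-ICOS, against 9.13, 9.14, 8.90 and 9.83 with anti-CD3, a difference of 0.59 ± 0.24 (SE, limma adjusted p = 0.420) with replicate 4 between the anti-ICOS arrays. Malt1 and Card9, which carry such signals to NF-kB, differed by 0.36 ± 0.13 and 0.20 ± 0.082 (SE, limma adjusted p = 0.416 and 0.419). Without replicate 4, Syk differed by 0.78, Malt1 by 0.44 and Card9 by 0.24. Replicate 4 was nearer to the anti-ICOS mean in all 23 of these genes, as in 78.1% of all genes.

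Among 19 measured receptors of myeloid and mast cells listed beside the adaptors, 1 rose and 0 fell in the fit over all arrays. Of all genes 0.271% rose and 0 fell. At an unadjusted p under 0.05 in that fit, 5 of the 19 were higher and 1 lower, beside 6.24% and 5.57% of all genes. The median difference of the list was 0.051. That median was 0.13 with quantile normalization, 0.12 without anti-ICOS replicate 1 and 0.34 with the filter on dim genes, which tests fewer genes. Without replicate 4, 5 were higher and 1 lower, beside 17.1% and 12.7% of all genes. Pirb, an inhibitory immunoglobulin-like receptor that signals through its own ITIMs and not through an adaptor, rose by 1.07 ± 0.12 (SE, limma adjusted p = 0.0317). It read 8.39 and 8.60 with anti-ICOS, against 7.35, 7.33, 7.34 and 7.68 with anti-CD3, and its close paralogs of the Pira group may share the probe signal. Leaving out any array but anti-CD3 replicate 4 ended the call of Pirb, with limma adjusted p up to 0.220, as did an offset of 64 (limma adjusted p = 0.0662). Siglech, a plasmacytoid dendritic cell receptor that uses DAP12, differed by 0.53 ± 0.080 (SE, limma adjusted p = 0.0746). Clec7a, which encodes the beta-glucan receptor Dectin-1 and has its own tyrosine motif, differed by 1.28 ± 0.21 (SE, limma adjusted p = 0.107). Without replicate 4, Pirb differed by 1.15, Siglech by 0.53 and Clec7a by 1.38. The activating receptor gene Trem1 read 5.44 and 5.55 with anti-ICOS and 5.41 to 5.68 with anti-CD3, and Trem2 read 7.21 and 7.23 with anti-ICOS and 7.18 to 7.48 with anti-CD3, so both groups overlapped.

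Transcription factors of NK cells and innate lymphocytes had a median of 0.34 over 13 measured genes, with 1 that rose and 0 that fell. Of all genes 0.271% rose and 0 fell. At an unadjusted p under 0.05 in the limma fit, 5 of the 13 were higher and 1 lower, beside 6.24% and 5.57% of all genes. Nfil3, which NK cell development requires, rose by 0.82 ± 0.11 (SE, limma adjusted p = 0.0450). It read 8.60 and 8.26 with anti-ICOS, against 7.68, 7.61, 7.55 and 7.60 with anti-CD3. Replicate 4 lay among the other anti-CD3 arrays, as for Klrb1c and Ncr1. Leaving out any array but anti-CD3 replicate 4 ended the call of Nfil3 (limma adjusted p up to 0.215). It also ended with an offset of 64, quantile normalization, median centring and the test over every probe set (limma adjusted p = 0.0917, 0.0616, 0.0583 and 0.0504). Prdm1 differed by 0.89 ± 0.13 (SE, limma adjusted p = 0.0670) and Zbtb16, the factor of NKT cells, by 0.64 ± 0.12 (SE, limma adjusted p = 0.141). Without replicate 4, Nfil3 differed by 0.82, Prdm1 by 0.97 and Zbtb16 by 0.61. The median of this list was then 0.51, with 8 higher and 1 lower, beside 17.1% and 12.7% of all genes.

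Cytotoxic effectors and other NK cell receptors were tested in 20 and 21 measured genes. In each list 0 passed in either direction over all arrays, with medians of 0.18 and 0.22. At an unadjusted p under 0.05, 6 effectors were higher, and 7 receptors were higher and 3 lower, beside 6.24% higher and 5.57% lower of all genes. Gzmk differed by 0.66 ± 0.14, Ifng by 1.39 ± 0.34 and Gzma by 0.43 ± 0.12 (SE, limma adjusted p = 0.225, 0.327 and 0.382). Cx3cr1, a chemokine receptor gene of mature NK cells, differed by -0.49 ± 0.10, Slamf7 by 0.34 ± 0.11 and Cd27 by -0.22 ± 0.070 (SE, limma adjusted p = 0.223, 0.413 and 0.413). Without replicate 4, 9 effectors were higher and 0 lower, and 13 of the receptors were higher and 3 lower, beside 17.1% and 12.7% of all genes. The differences were then 0.69 for Gzmk, 1.67 for Ifng, 0.37 for Gzma, -0.56 for Cx3cr1, 0.40 for Slamf7 and -0.24 for Cd27. Gzmk differed by 0.40 without anti-ICOS replicate 1 and by 0.92 without anti-ICOS replicate 2.

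**Figure D4:**
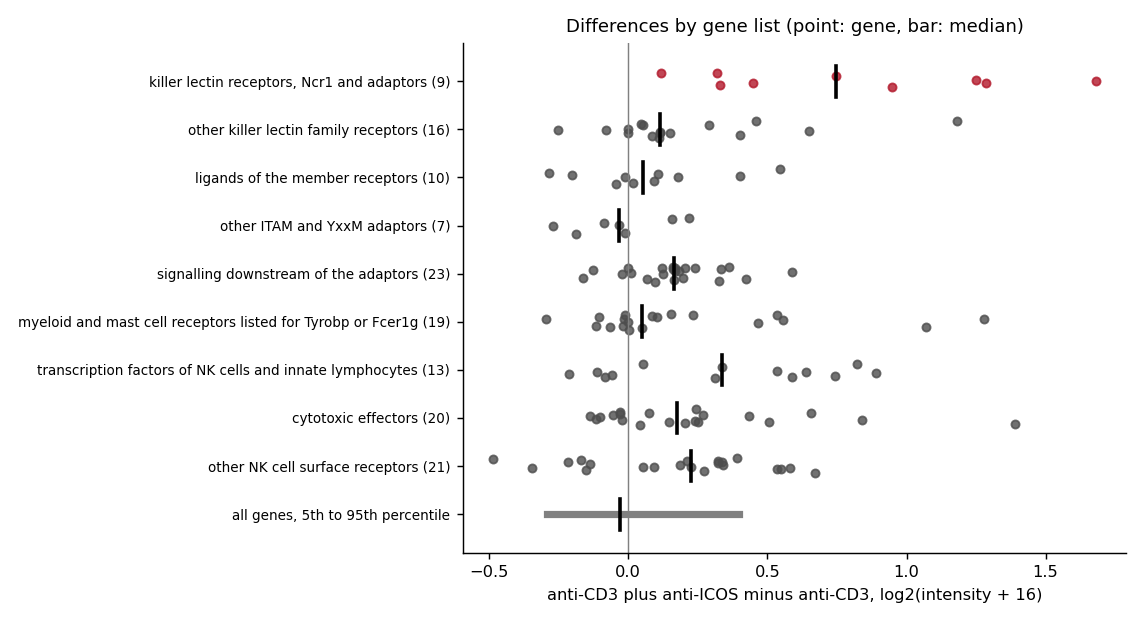
Difference of each gene, the mean with anti-ICOS minus the mean with anti-CD3 alone, on the log2(intensity + 16) scale, by gene list (points), with list medians (bars) and, at the bottom, the span from -0.29 to 0.40 that leaves out the extreme tails of all 19937 genes, with their median of -0.031. The 9 chosen genes have a median of 0.75, and the lists below them have medians from -0.033 to 0.34.

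Genes outside the 9 with the nearest profile over the 6 arrays were named by the root mean square difference of centred log2 values. Nearest to Klrb1b were Anxa3 at 0.072, Anpep at 0.093 and Tbc1d8 at 0.14, where Klrb1b itself varied by 0.80 about its mean. Nearest to Ncr1 were Rnf24 at 0.070, Tbc1d4 at 0.090 and Tgm2 at 0.091, against 0.37 for Ncr1 itself. Nearest to Tyrobp were Ramp3 at 0.088, Cd274 at 0.12 and Cish at 0.13, against 0.65, and Cd274 was also among the 3 nearest to Fcer1g. For Klrk1 they were Zfp369 at 0.021, Gm9861 at 0.023 and Golga1 at 0.023, against 0.29. Anxa3 lay 0.10 above the mean of anti-CD3 replicates 1 to 3 in replicate 4 and 1.78 with anti-ICOS, whereas Zfp369 lay 0.65 and 0.53 above it. With 6 arrays many genes share any given profile, and nearness is a description.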

How the data were processed

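Biotin-labelled RNA from 6 cultures was read on 1-colour Affymetrix arrays, and groups and replicate numbers come from the titles. The authors deposited an intensity per probe set, whose scale is taken as linear and already normalized from the values, since array medians lie between 109 and 114. The submitters' processing notes name MAS5 and no other tool. Background correction and centring have no stated method in those notes, and a shift shared by most genes might not be seen. Of 34760 probe sets, 21640 carried 1 symbol, 1321 several and 11799 are unnamed here; the brightest per gene gave 19937 genes. Values were analysed as log2(intensity + 16), which understates the change of dim genes. The comparison was fitted in R 4.3.3 by limma 3.58.1 (lmFit, eBayes, 4 residual degrees of freedom, all 6 arrays), two-sided, with Benjamini-Hochberg adjustment over all genes and a threshold of 0.05. An exact two-sided rank test of 1 gene cannot go below 0.133. The members and lists were chosen with earlier results of these data known. Named genes are the members, the 3 of smallest p in each list, list genes past the threshold, and the 3 nearest profiles of a member; other genes, named as markers or neighbours, were chosen after their values were seen. The fit was also run on simulated arrays with independent noise, which do not mimic 1 array that stands apart as replicate 4 does. Precision is limited by the number of arrays. Alternatives were the offset, quantile normalization, median centring, a filter on dim genes, the mean of probe sets, every probe set, a trended robust prior, array weights, a replicate block and each array left out; replicate 4 as the only reference was added after seeing the data. Python 3.11.15 with matplotlib 3.10.9 made the plots.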

Additional observations from a re-analysis of the deposited data

Results flagged for a closer look

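Of 33 genes examined, 9 chosen and 24 from the lists, 1 had an anti-CD3 array past Dixon's critical value for 4 samples. This was Pirb in anti-CD3 replicate 4, at 7.68 on the log2 scale, where the distance to the next array made up 0.93 of the whole spread of the group. Chance gives about 1 in 20 groups.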

How the results depend on the processing

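All 9 genes kept a positive difference under each of the alternatives that tested them with the anti-CD3 group as reference. The filter on dim genes left out Klrb1c, Klrg1 and Ncr1. Against anti-CD3 replicate 4 alone, which was added after seeing the data, Klrd1, Klrk1 and Klrc1 turned to -0.099, -0.15 and -0.20; the cause was not tested. The count of the 9 past the threshold was 2 with an offset of 1, quantile normalization, median centring, the mean of probe sets or a trended robust prior. In these settings 0.211% to 0.331% of all genes passed. The count was 9 with array weights, beside 47.2% of all genes. With an anti-CD3 array left out it was 1 to 8, the 8 without anti-CD3 replicate 4, where 29.7% of all genes passed. The median difference of the 9 was 0.97 with an offset of 1, 0.43 with an offset of 64 and 0.64 to 0.80 with an array left out. Over all genes, 28 were higher with an offset of 64 and 4543 with array weights, with 16 to 3404 with an array left out, and 4871 were lower with array weights and 0 to 2527 with an array left out. Of the 129 list genes, 0 passed with an offset of 64, 1 with quantile normalization, median centring or every probe set, and 79 with array weights. With an anti-CD3 array left out 0 to 65 passed, against 2 in the fit reported. All-gene shares were 0.14% with an offset of 64, 0.208% to 0.241% in the settings with 1, and 47.2% with array weights. The largest counts with an array left out were all without anti-CD3 replicate 4. Deviations from the group means of arrays with the same replicate number had correlations of -0.039 and 0.10. With 2 anti-ICOS arrays these deviations mirror each other, so the values cannot tell whether replicate numbers pair the arrays. With the replicate block 8 of the 9 and 65 list genes passed, beside 3389 higher and 3163 lower genes, 32.9% of all genes. Array weights were 4.53, 1.07, 0.38 and 0.15 for anti-CD3 replicates 1 to 4.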
